A study of Mus musculus with 9 samples.

Results

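Ccdc80, Ltbp2 and Col15a1 are 3 genes for secreted proteins of the extracellular matrix. They were chosen by name for these roles, and Ccdc80 also as a known target of YAP, TAZ and TEAD, from the authors' table of 471 genes that differed between EHE17 cells given MGH-CP1 and cells given vehicle. All 3 are rows of that table, which holds 211 protein-coding genes. EHE17 is an endothelial tumour cell line of mouse with the genotype TC+/+ Cdkn2a -/-, which both groups share. The groups compared were cells given 10 µM MGH-CP1 for 16 h and cells given the DMSO vehicle, with 3 biological replicates each; the cells given 300 nM dinaciclib are not used here, and their table of 251 genes lists 0 of the 3. The labels name 1 line and do not say how many clones it holds. RNA was selected for poly(A) and sequenced without a strand mark.

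MGH-CP1 occupies the palmitate pocket of TEAD proteins, the DNA-binding partners through which YAP and TAZ, and the TAZ-CAMTA1 fusion of epithelioid hemangioendothelioma, switch on genes. Genes for matrix and adhesion proteins are among the best-known outputs of this pathway, and endothelial cells lay down a basement membrane of laminins, type IV collagen and associated collagens. Ccdc80 (also called Urb, Dro1 or Ssg1) is a secreted matrix protein. Col15a1 encodes the chain of type XV collagen, a basement membrane zone collagen that is related to type XVIII collagen and, like it, ends in an endostatin-like domain. Ltbp2 is a fibrillin-related protein of elastic microfibrils and the member of its family that does not bind latent TGF-beta.

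With MGH-CP1, Ccdc80 and Col15a1 fell and Ltbp2 rose. Ccdc80 was 2.66-fold lower and Col15a1 3.93-fold lower in MGH-CP1 cells, while Ltbp2 was 2.39-fold higher. For none of the 3 did the normalised counts of the groups overlap, and the same holds for every other matrix gene named below. The share of all listed genes without overlap was not counted. All 3 passed the test (edgeR quasi-likelihood, Benjamini-Hochberg), in a table in which 100% of the 355 tested genes passed, 49.3% higher and 50.7% lower. The authors had picked these genes for a change in the same libraries. Neither passing nor lack of overlap here is therefore separate evidence of a change, and nothing is read from the count. In bulk RNA, fewer cells that express a gene and less RNA in each cell cannot be told apart.

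Vehicle libraries held more counts than MGH-CP1 libraries: the totals ran from 19934012 to 24310817 with MGH-CP1 and from 31852117 to 40020833 with vehicle. Of the endothelial markers, Kdr and Fli1 are listed only in the dinaciclib comparison, so that they have no MGH-CP1 value here. In vehicle cells they stood at 90.3 ± 2.90 and 32.0 ± 0.609 FPKM (SD, n = 3). FPKM are the authors' levels per gene length and library total. Vwf stood at 0.0454 ± 0.0203 FPKM with MGH-CP1 and 0.149 ± 0.0200 FPKM with vehicle (SD, n = 3 each). The other 19 of 22 endothelial markers are in neither table, and the MGH-CP1 table lists 0 of 14 fibroblast, 0 of 12 mural, 0 of 10 epithelial and 2 of 17 myeloid markers, which says nothing of the levels of genes it does not list. The summed level of the 2 myeloid genes, Cd68 and Lyz2, ran from 3.81 to 4.20 FPKM with MGH-CP1 and from 5.14 to 5.78 FPKM with vehicle, but they moved in opposite directions. Cd68 rose to 1.55 ± 0.496 FPKM with MGH-CP1, against 0.347 ± 0.144 with vehicle, and Lyz2 fell to 2.504 ± 0.693 FPKM with MGH-CP1, against 5.08 ± 0.453 with vehicle (SD, n = 3 each). The rRNA gene CT010467.1 took 0.342% to 0.803% of all counts with MGH-CP1 and 0.0402% to 0.125% with vehicle. The part of depth, of rRNA and of myeloid genes in the changes of Ccdc80, Ltbp2 and Col15a1 was not tested.

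Ccdc80 (ENSMUSG00000022665) lies on chromosome 16 from 45093402 to 45128077, plus strand (GRCm38), with 9 merged exons that sum to 4293 bases, and no other annotated gene overlaps it. Its read counts were 36, 39 and 34 in the MGH-CP1 libraries and 133, 148 and 179 in the vehicle libraries. Divided by the authors' size factors, these are normalised counts of 41.7, 55.1 and 40.4 with MGH-CP1, against 117, 122 and 125 with vehicle. The vehicle libraries lay close together and every MGH-CP1 library lay below the lowest of them. The log2 change of Ccdc80 was -1.41 (SE 0.201), at an adjusted p of 1.29e-04 (edgeR quasi-likelihood, Benjamini-Hochberg over 355 genes). Among MGH-CP1 libraries the SD was 17.8% of the mean, where counting error alone would give 16.7%; among vehicle libraries it was 3.15%, where counting error would give 8.11%. The pooled counts were 109 with MGH-CP1 and 460 with vehicle, a ratio of 0.372 with an exact 95% interval of 0.299 to 0.459 that covers counting error only and leaves out the spread between libraries.

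Col15a1 (ENSMUSG00000028339) lies on chromosome 4 from 47208161 to 47313167, plus strand, with 46 merged exons that sum to 6349 bases. It had 55, 39 and 53 counts with MGH-CP1 and 233, 341 and 332 counts with vehicle. The normalised counts were 63.7, 55.1 and 63.0 with MGH-CP1, against 206, 280 and 232 with vehicle. Here the MGH-CP1 libraries lay close together and the vehicle libraries were the more scattered ones, with replicate 2 the highest. For Col15a1 the fitted log2 change was -1.97 (SE 0.179), at an adjusted p of 9.20e-06 (edgeR quasi-likelihood, Benjamini-Hochberg). Its SD was 7.90% of the mean with MGH-CP1 and 15.8% with vehicle, and counting error alone would give 14.3% and 5.78%. The lowest vehicle library held more than 3 times the normalised count of any MGH-CP1 library. The pooled ratio was 0.255, from 147 counts with MGH-CP1 and 906 with vehicle, with an exact 95% counting interval of 0.212 to 0.303. Among the 101 protein-coding genes that passed the count filter and fell, Col15a1 ranked 15 by size of change and Ccdc80 ranked 46. Listed genes that the filter left out have no rank here.

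Ltbp2 (ENSMUSG00000002020) lies on chromosome 12 from 84783212 to 84876532, minus strand, with 35 merged exons that sum to 8184 bases. The gene was close to the limit of detection, with 21, 21 and 36 counts in the MGH-CP1 libraries and 11, 20 and 20 counts in the vehicle libraries. The raw counts of the groups nearly meet, in libraries that are deeper with vehicle. The normalised counts were 24.3, 29.7 and 42.8 with MGH-CP1, against 9.70, 16.4 and 14.0 with vehicle, so that the lowest MGH-CP1 library stood above the highest vehicle library. The fit gave Ltbp2 a log2 change of 1.26 (SE 0.348), at an adjusted p of 0.00512 (edgeR quasi-likelihood, Benjamini-Hochberg). The SD was 29.4% of the mean with MGH-CP1 and 25.4% with vehicle, of which counting error alone would give 19.7% and 24.4%. The pooled counts, 78 with MGH-CP1 and 51 with vehicle, gave a ratio of 2.40 with an exact 95% counting interval of 1.66 to 3.48, the widest of the 3 genes relative to its value. On the scale log2(FPKM + 1), on which so low a gene is pressed towards 0, the change of Ltbp2 was 0.11 and did not pass the threshold (adjusted p 0.0711, limma with Benjamini-Hochberg). On that scale 331 of the 355 tested genes passed. Among tested matrix genes about as low, Vwf, Col13a1, Has1, Comp and Matn4 passed and Adamtsl2 did not. Why Ltbp2 did not pass was not tested. In the authors' deposited table, Ltbp2 had an adjusted p of 0.0235 and ranked 364 of 471 by it, where Col15a1 ranked 43 and Ccdc80 ranked 97.

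**Figure D1:**
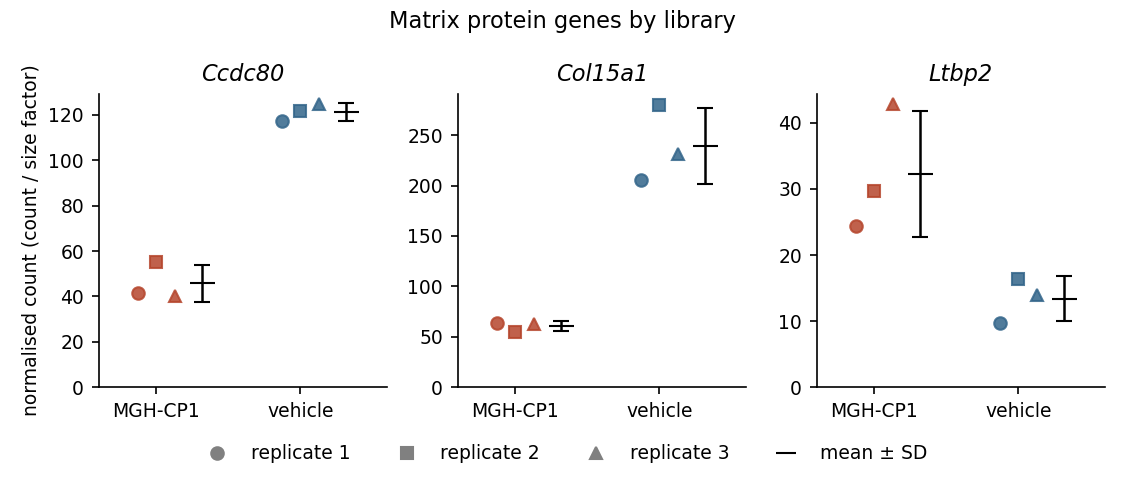
Normalised counts (raw count divided by the authors' size factor; linear axes from 0) of Ccdc80, Col15a1 and Ltbp2 in 3 MGH-CP1 and 3 vehicle libraries; points are libraries, bars are mean ± SD. Ccdc80 (40.4 to 55.1 with MGH-CP1, 117 to 125 with vehicle) and Col15a1 (55.1 to 63.7 with MGH-CP1, 206 to 280 with vehicle) were lower with MGH-CP1, and Ltbp2 (24.3 to 42.8 with MGH-CP1, 9.70 to 16.4 with vehicle) was higher.

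Reads without a strand mark cannot be assigned between a gene and a partner on the other strand. The span of the antisense gene D030025P21Rik covers 764 exon bases of Ltbp2 at its 5′ end, and that of the antisense gene Gm12426 covers 216 exon bases of Col15a1, also at its 5′ end. Neither antisense gene is in the table, and their part in the counts of Ltbp2 and Col15a1 was not tested.

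Because MGH-CP1 acts on TEAD proteins and Ltbp2 and Col15a1 moved in opposite directions, the 250 bases before the RefSeq start of each (RefSeq, GRCm38.p6; 2 of the 3 genes were matched, and Ccdc80 was not) were searched on both strands for GGAATG, the core of the TEAD element, for the AP-1 element TGANTCA, for the Sp1 box GGGCGG and for TATAAA. The window of Ltbp2 is chr12:84876492-84876741, minus strand, and that of Col15a1 is chr4:47207762-47208011, plus strand; both are written 5′ to 3′ in the direction of the gene. Capitals mark the matches found, which are the Sp1 box in Ltbp2, on either strand.
Ltbp2: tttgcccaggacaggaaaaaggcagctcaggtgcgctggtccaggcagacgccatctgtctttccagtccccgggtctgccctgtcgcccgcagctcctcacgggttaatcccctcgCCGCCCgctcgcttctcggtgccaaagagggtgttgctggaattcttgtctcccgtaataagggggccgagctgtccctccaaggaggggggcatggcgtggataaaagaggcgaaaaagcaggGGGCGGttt
Col15a1: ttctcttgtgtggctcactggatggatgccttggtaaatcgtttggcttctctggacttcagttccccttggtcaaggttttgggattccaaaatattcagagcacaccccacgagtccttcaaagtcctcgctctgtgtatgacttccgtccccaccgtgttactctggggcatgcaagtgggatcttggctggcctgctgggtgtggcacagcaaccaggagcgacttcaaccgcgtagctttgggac

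The letters GGAATG were in neither window, and 12.6% of 32851 promoter windows of that length hold them. TGANTCA was in neither, against 6.75% of all windows, and TATAAA in neither, against 12.4%. GGGCGG was found in Ltbp2, with matches that begin 9 and 133 bases before the start, and not in Col15a1; 32.7% of all windows hold it. The window of Ltbp2 was 61.6% G and C with 16 CpG pairs, and that of Col15a1 was 53.6% with 8, beside medians of 52.4% and 6 over all windows. These matches describe the letters of the windows and say nothing of binding.

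Per length, Col15a1 and Ccdc80 were the higher genes and Ltbp2 the lowest in every library. Col15a1 stood at 0.356, 0.308 and 0.353 FPKM with MGH-CP1 and at 1.15, 1.57 and 1.31 FPKM with vehicle. Ccdc80 stood at 0.345, 0.456 and 0.334 FPKM with MGH-CP1 and at 0.973, 1.01 and 1.04 FPKM with vehicle. With vehicle, every Col15a1 level exceeded every Ccdc80 level; with MGH-CP1 the levels overlapped, and Ccdc80 was the higher of the 2 in replicate 2. Ltbp2 stood at 0.106, 0.129 and 0.186 FPKM with MGH-CP1 and at 0.0422, 0.0716 and 0.0611 FPKM with vehicle. Among the 187 tested protein-coding genes of the table, ordered by mean FPKM from the highest, Col15a1 was number 115 with MGH-CP1 and 57 with vehicle, Ccdc80 number 109 and 72, and Ltbp2 number 157 and 178.

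**Figure D2:**
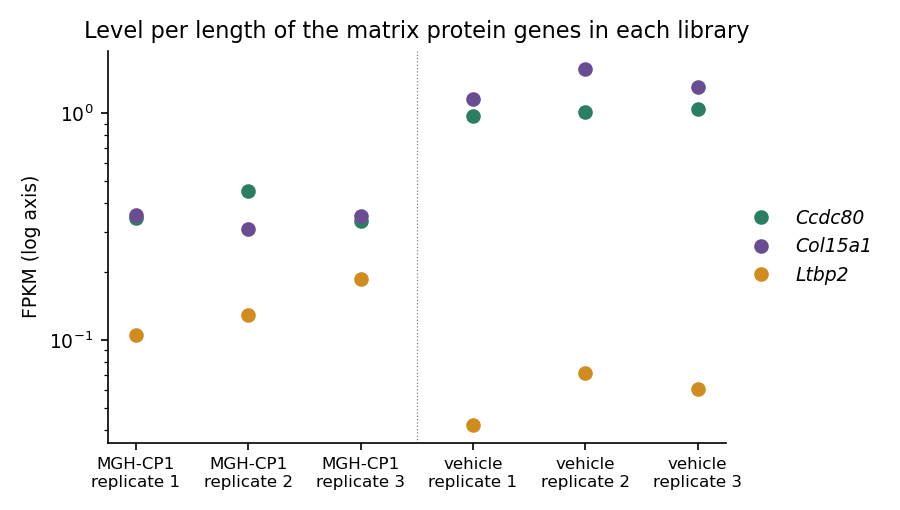
FPKM (log axis) of Ccdc80, Col15a1 and Ltbp2 in each of 3 MGH-CP1 and 3 vehicle libraries, 1 point per gene and library. Ltbp2 was the lowest gene in every library, and Col15a1 and Ccdc80 overlapped with MGH-CP1 (0.308 to 0.356 and 0.334 to 0.456 FPKM) but not with vehicle (1.15 to 1.57 and 0.973 to 1.04 FPKM).

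The summed level of the 3 genes was 0.857 ± 0.0449 FPKM with MGH-CP1 and 2.41 ± 0.243 FPKM with vehicle (SD, n = 3 each). Ltbp2 made up 16.3% ± 4.40 of that sum with MGH-CP1 and 2.39% ± 0.394 with vehicle. Col15a1 made up 39.7% ± 4.86 with MGH-CP1 and 55.6% ± 3.26 with vehicle. The share of Ccdc80 was 44.0% ± 6.46 with MGH-CP1 and 42.1% ± 3.57 with vehicle, and these ranges overlapped.

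Ratios between genes in 1 library do not depend on how the libraries are scaled. There were 0.382, 0.538 and 0.679 Ltbp2 reads for each Col15a1 read in the MGH-CP1 libraries, against 0.0472, 0.0587 and 0.0602 in the vehicle libraries, a difference of 3.24 on the log2 scale. For each Ccdc80 read there were 0.583, 0.538 and 1.06 Ltbp2 reads with MGH-CP1 and 0.0827, 0.135 and 0.112 with vehicle, a log2 difference of 2.69. Neither set of ratios overlapped between the groups. Ltbp2 had been picked for a rise, and Col15a1 and Ccdc80 for a fall, in these same libraries. The direction of both differences was therefore set by how the genes were picked, and the lack of overlap is not separate evidence. The share of other pairs of listed genes without overlap was not counted.

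The 2 genes that fell differed less from each other, and their ratio follows from the 2 ratios above. There were 0.655, 1.00 and 0.642 Ccdc80 reads for each Col15a1 read with MGH-CP1, against 0.571, 0.434 and 0.539 with vehicle, a log2 difference of 0.55 between group means of -0.42 ± 0.362 with MGH-CP1 and -0.97 ± 0.209 with vehicle (SD, n = 3 each). The groups did not overlap, but without MGH-CP1 replicate 2 the log2 difference was 0.34. For each of the 3 ratios the two-sided exact permutation test gave p = 0.10, also after Benjamini-Hochberg adjustment over the 3 ratios. That is the smallest p that 3 against 3 libraries allow, so that no ratio could pass a threshold of 0.05.

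**Figure D3:**
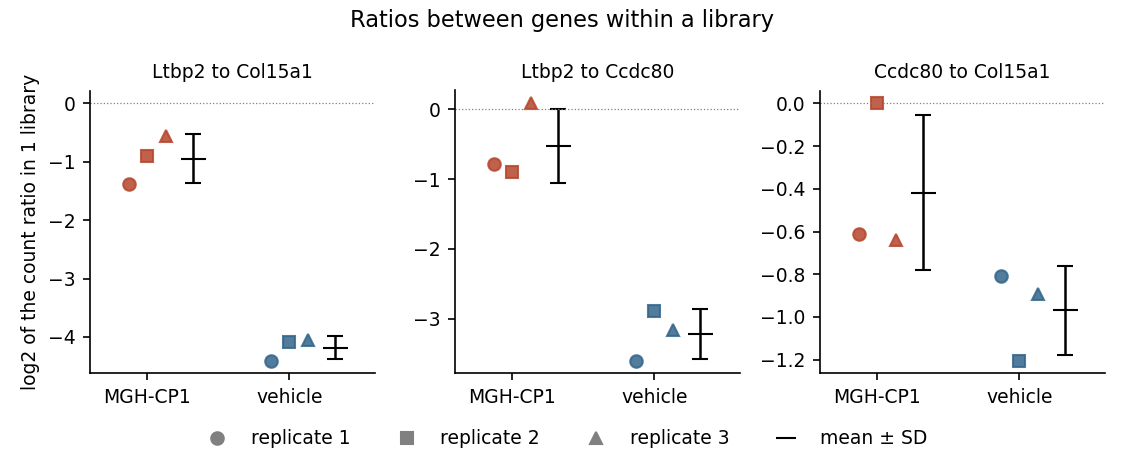
Log2 ratio of the counts of 2 genes within each library, for Ltbp2 to Col15a1, Ltbp2 to Ccdc80 and Ccdc80 to Col15a1, in 3 MGH-CP1 and 3 vehicle libraries; points are libraries, bars are mean ± SD, and the dotted line marks equal counts. The MGH-CP1 libraries lie 3.24, 2.69 and 0.55 above the vehicle libraries on average, and the last of these is the one in which replicate 2 stands apart with MGH-CP1.

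Other genes of the matrix went both ways. Of 260 genes on 8 lists of matrix proteins, their enzymes and their receptors, 13 were in the MGH-CP1 table and 12 passed the count filter; 6 rose and 6 fell, where 49.3% and 50.7% of all tested genes did. The median log2 change of the 12 was 0.07, beside -1.01 over all 355 tested genes, and the median size of the change without its sign was 1.501 beside 1.447. The signed medians say little, because the table lists no gene with a log2 change between -1 and 1, so that a few genes set their sign: over all genes the median was 1.15 without the count filter and 0.94 to 1.01 when a vehicle library was left out. Genes that the table does not list may have changed by less than its limits, which are a deposited adjusted p below 0.05 and a log2 change of at least 1 in either direction.

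Col15a1 was the 1 of 25 basement membrane genes in the table, which lists no laminin, nidogen or type IV collagen gene. Of 35 other collagens, Col13a1, a collagen with a transmembrane domain, was listed and rose. It reached 28.9 ± 10.6 normalised counts with MGH-CP1 and 7.79 ± 4.98 with vehicle (SD, n = 3). The rise was 1.82 on the log2 scale and 1.46 with TMM factors. With 1 library left out in turn it ranged between 1.495, without MGH-CP1 replicate 2, and 2.46, without vehicle replicate 3.

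Ltbp2 was 1 of 2 listed genes among 25 for microfibrils, elastic fibres and latent TGF-beta, and the other was the elastin gene Eln. Eln had 5, 4 and 0 counts with MGH-CP1 and 10, 27 and 38 counts with vehicle, and the count filter left it out of the fit. Without that filter its log2 change was -2.34 (SE 0.676), at an adjusted p of 0.00478 (edgeR quasi-likelihood, Benjamini-Hochberg over 471 genes), opposite in sign to Ltbp2; in the 4 fits without 1 library that kept Eln it ran from -2.84 to -1.74. Ltbp1, Ltbp3, Ltbp4 and the fibrillin genes are not in the table, and Ltbp2 is the 1 listed gene of 24 of TGF-beta response.

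Ccdc80 was 1 of 6 listed genes among 35 adhesive and matricellular proteins, of which 5 fell and 1 rose. The von Willebrand factor gene Vwf stood at 20.5 ± 9.20 normalised counts with MGH-CP1 and 66.9 ± 9.07 with vehicle. Nephronectin (Npnt), a ligand of integrin, stood at 1009 ± 185 with MGH-CP1 and 2101 ± 252 with vehicle, and is the most abundant of the matrix genes that fell. Matn4, a matrilin, stood at 13.0 ± 6.29 with MGH-CP1 and 39.9 ± 5.88 with vehicle. Comp, a thrombospondin family protein known from cartilage, stood at 5.24 ± 2.15 with MGH-CP1 and 17.2 ± 5.74 with vehicle. The gene that rose was Spp1, which encodes osteopontin, at 633 ± 49.1 with MGH-CP1 and 278 ± 29.6 with vehicle.

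The other matrix genes listed rose. Has1, a hyaluronan synthase gene, had a log2 change of 2.19 (SE 0.497) on 31, 9 and 17 counts with MGH-CP1 and 3, 9 and 7 counts with vehicle. Adamtsl2, which encodes a secreted protein related to the ADAMTS proteases and without protease activity, stood at 20.8 ± 6.50 normalised counts with MGH-CP1 and 7.65 ± 1.66 with vehicle. Like Ltbp2, it did not pass on the scale log2(FPKM + 1), where its change was 0.08 (adjusted p 0.125, limma with Benjamini-Hochberg). Cd36, a receptor for thrombospondin and fatty acids, stood at 1562 ± 105 with MGH-CP1 and 671 ± 49.5 with vehicle. None of the 19 genes for collagen processing and crosslinking was listed.

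**Figure D4:**
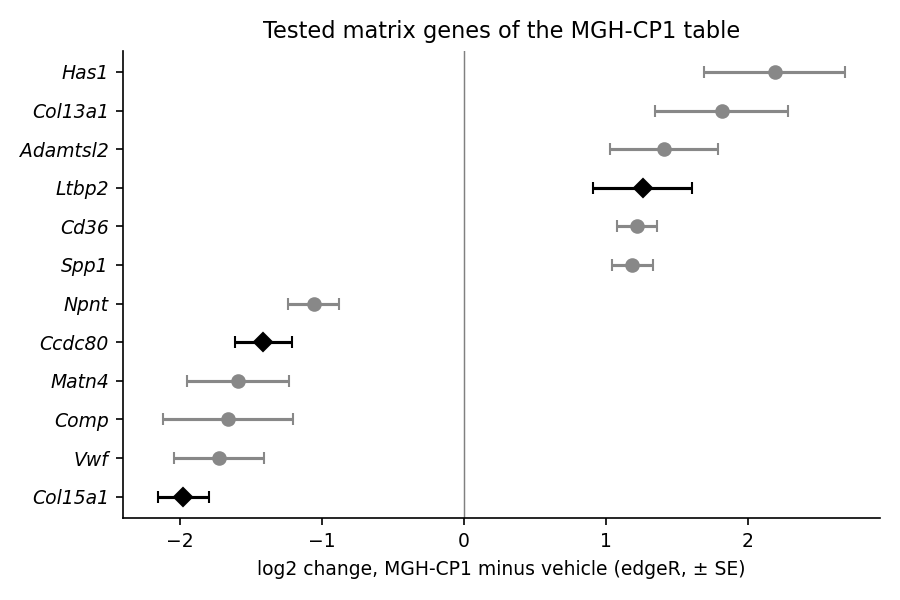
Log2 change (MGH-CP1 minus vehicle, edgeR, bars are SE) of the 12 tested genes on the matrix lists; black diamonds are Ccdc80, Col15a1 and Ltbp2, grey circles the others. Ltbp2 (1.26) lies among 6 genes that rose and Ccdc80 (-1.41) and Col15a1 (-1.97) among 6 that fell, with Col15a1 the lowest.

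Of 32 targets of YAP, TAZ and TEAD, 2 were in the table, and they differed in direction. Ccdc80 fell, and Gadd45b, a stress-induced gene, stood at 48.8 ± 8.28 normalised counts with MGH-CP1 and 24.3 ± 3.68 with vehicle, a rise of 1.01 on the log2 scale (SE 0.268). Ccn1, Ccn2 and Ankrd1 are not in the table, and their levels were not analysed here.

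The protein-coding genes with the profiles most like each of the 3 over the 6 libraries were found by the root mean square difference of log2 profiles, each set relative to its vehicle mean with 1 added to each normalised count, among 186 other tested genes. For Ccdc80 they were the cation exchanger gene Slc24a1 (0.121), Tomm7 of the mitochondrial import complex (0.151) and Btbd11 (0.160), where the median gene of the table lay at 0.912. For Col15a1 they were Nckap1l (0.190), a subunit gene of the actin-regulating WAVE complex, the phosphatase gene Phospho1 (0.193) and the potassium channel gene Kcnn3 (0.225), where the median lay at 0.805. For Ltbp2 they included Gm14322 (0.150) and Spp1 (0.232), where the median lay at 1.63. Ccdc80 and Col15a1 lay 0.464 apart, farther than either lay from its own nearest genes. Since each profile was set relative to its vehicle mean, likeness depends much on the size of the group change. The log2 changes of Slc24a1, Tomm7 and Btbd11 were -1.29, -1.38 and -1.50, beside -1.41 for Ccdc80. The medians cover genes that rose as well as genes that fell. All of these genes were picked for a change between the same libraries, and the likeness is a description over 6 libraries.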

How the data were processed

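Gene expression was measured by RNA sequencing. The submitters' processing notes name HISAT2 2.0.5 and featureCounts 1.5.0-p3, beside fastp and DESeq2 1.20.0, with no role given. No genome build is named in the sources used here; GRCm38 is assumed, since all 471 gene identifiers occur in GENCODE M21, 464 of them with its start and end. Per the file headers, the authors deposited raw read counts of every library and FPKM. A further set of deposited columns is a normalised signal, found from the values to equal counts over a constant of the library (its size factor). Their log2 fold changes and p-values were deposited too, and are named as the authors' where printed. Size factors and library totals were recovered from these columns, with 100% of values recovered within 0.1%.

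All rows of the MGH-CP1 table were fitted on the deposited counts of 6 libraries with edgeR 4.0.16 (R 4.3.3), quasi-likelihood, two-sided, no covariate, the authors' size factors as library scale, filterByExpr with a minimum count of 10, Benjamini-Hochberg adjustment over the 355 genes kept and a threshold of 0.05. That scale was used because TMM takes most genes as unchanged and the table holds only changed ones. Each SE printed here was derived from the test, as the size of the log2 change over the square root of the F statistic. The fit was also run on simulated counts with 1 fixed spread for all genes and many genes left unchanged. The listed genes differ in both respects, so that run says little of the fit on these data. Ratios within a library were compared by exact permutation (scipy 1.17.1). The members, lists and tests were chosen with earlier results of these data known. Named are the 3 genes, every listed gene of the matrix, YAP/TAZ/TEAD and TGF-beta lists, and the 3 most alike profiles per gene, of which 1 is not reported here. Replicate libraries differed by more than sampling noise (chi-square 12.0 to 206 times its degrees of freedom). Alternatives were other library scales, DESeq2 1.42.0, other gene filters, limma 3.58.1 on log2 FPKM, a replicate block and leaving out each library.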

Additional observations from a re-analysis of the deposited data

How the results depend on the processing

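Ccdc80 and Col15a1 kept direction and call under all 16 alternatives each, from -1.75 to -0.54 and from -2.29 to -0.80 on the log2 scale, with the smallest sizes from log2(FPKM + 1). Nearly all tested genes were called in each setting: 352 of 354 with TMM factors, 343 of 355 with DESeq2's own size factors and 331 of 355 with log2(FPKM + 1). Keeping the call, among genes picked for a change, is therefore not particular to these genes. Ltbp2 kept direction and call in 14 of 15, and it is not in the upper part of the table by mean. On log2(FPKM + 1) its change was 0.107 (adjusted p 0.0711, limma with Benjamini-Hochberg). That scale presses genes far below 1 FPKM towards 0. Of tested matrix genes about as low, Vwf, Col13a1, Has1, Comp and Matn4 passed on it and Adamtsl2 did not. Why Ltbp2 did not pass was not tested. TMM factors moved all tested genes by a median of -0.32 and DESeq2's own size factors by 0.29; under them Ccdc80 stood at -1.75 and -1.13, Col15a1 at -2.29 and -1.69, and Ltbp2 at 0.93 and 1.55. Leaving out each library gave -1.56 to -1.33 for Ccdc80, -2.07 to -1.85 for Col15a1 and 1.00 to 1.43 for Ltbp2. The number of genes called was 355, and 236 in the upper part by mean or 187 with protein-coding genes alone, since fewer were tested; without a filter it was 471, 270 higher and 201 lower. The 3 within-library ratios kept their sign throughout, which for the 2 ratios with Ltbp2 follows from how the genes were picked. With the replicate number as a block the changes were -1.42, -1.96 and 1.27 for Ccdc80, Col15a1 and Ltbp2, and 355 genes were called. Same-numbered libraries did not deviate together over the 355 tested genes (r of 0.03, -0.11 and 0.03). Since these genes were picked for a change between groups, that does not settle whether same-numbered libraries were prepared together. Depth limits Ltbp2 most, at 11 to 36 counts per library.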
